A study of Mus musculus with 2 samples.

Results

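Effector-like CD8 T cells of the mouse mammary fat pad were taken as the T cells that carried RNA of at least 2 of the 4 genes Klrg1, Cx3cr1, S1pr5 and Zeb2. Klrg1 or Cx3cr1 had to be among them, and no UMI (a unique molecular identifier, which stands for 1 captured RNA molecule) of Fcer1g, Itgae or Ccr7 was allowed. They numbered 85 of 2991 T cells in the parous library and 260 of 2497 T cells in the virgin library, 345 of 5488 in all. A T cell here is a cell with at least 500 genes, at least 1000 UMIs, under 10% mitochondrial UMIs and a UMI of Cd3d, Cd3e or Cd3g. Since these genes chose the cells, their levels and the share of cells that met the rule are given as descriptions.

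After an infection or another strong stimulus, CD8 T cells multiply and part of them become terminal effector cells. These make T-bet, Zeb2 and KLRG1, fill their granules with granzymes and perforin, and use the fractalkine receptor CX3CR1 and the sphingosine-1-phosphate receptor S1PR5 to patrol blood and vessel walls. Tissue-resident memory T cells instead bind to the tissue with the integrins CD103 (Itgae) and CD49a (Itga1) and keep the exit receptor S1PR1 low. Both kinds of cell can be found in a digested fat pad.

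The parous library came from C57BL/6 mice described as multiparous, and the virgin library from virgin mice of the same strain, with no treatment named and no age given in the labels. Each is a pool of at least 5 mice, and from each pool live CD45+ TCRB+ CD8a+ cells were sorted from fat pad number 4. RNA was counted from the 5′ end of transcripts with droplets. With 1 library per group nothing was tested between the groups, and the 95% intervals given below cover counting error only, not mice or cell preparations.

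The T cells had medians of 4116 UMIs in parous tissue and 7005 UMIs in virgin tissue, and the effector-like cells 3597 UMIs (1480 genes) and 6998 UMIs (2360 genes). Summed over cells this gave 365213 UMIs for the parous and 2513007 UMIs for the virgin effector-like cells. Of 4927 parous barcodes 1908 failed the cell filter, and of 2526 virgin barcodes 15 did; none of these met the marker rule. The libraries shared 18 barcodes, carried by 1 parous and 2 virgin effector-like cells.

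The cells were T cells of the CD8 lineage by their other RNA. Cd8b1, the beta chain of the CD8 coreceptor, had a UMI in 80 of 85 parous and 253 of 260 virgin effector-like cells, at 1366 CPM in parous and 1415 CPM in virgin cells (counts per 1e6 UMIs of the summed cells). Cd4, Lyz2 and Csf1r of macrophages, Cd79a and Ms4a1 of B cells, and Zbtb16 of innate-like T cells were at 0 in both. The summed level of the B cell list was 0 and 4.78 CPM, that of the mammary epithelial list 8.21 and 1.19 CPM, and that of the gamma-delta T cell list 30.1 and 46.2 CPM. The CD4 T cell list summed to 27.4 CPM in parous and 83.2 CPM in virgin effector-like cells, and to 138 and 72.6 CPM in other T cells. A UMI of that list was found in 6 parous and 79 virgin effector-like cells. The myeloid list stood at 131 CPM in parous and 242 CPM in virgin effector-like cells, with Cst3 at 101 CPM in parous and 114 CPM in virgin cells and Cd74 at 5.48 CPM in parous and 95.1 CPM in virgin cells.

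Effector-like cells were rarer among parous than among virgin mammary T cells. They made up 2.84% of parous T cells (interval 2.28 to 3.5%) and 10.4% of virgin T cells (interval 9.24 to 11.7%), a 3.66-fold higher share in the virgin library. A rule that counts detected genes depends on UMIs per cell, so every cell was also thinned at random to 1400 UMIs. At that depth the rule was met by 36 of 2872 cells in the parous library (1.25%, with an interval of 0.879 to 1.73%) and by 96 of 2485 in the virgin one (3.86%, with an interval of 3.14 to 4.70%), a 3.08-fold higher virgin share. Over 20 further random draws the parous share lay between 0.766 and 1.39% and the virgin share between 3.74 and 4.63%, and the virgin share was 2.92 to 5.41 times the parous one. At 2500 UMIs the shares were 1.95% and 6.45%. The parous share was lower at each of these depths. Fewer cells of this kind and fewer marker molecules per cell cannot be fully told apart with counts this sparse.

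**Figure D1:**
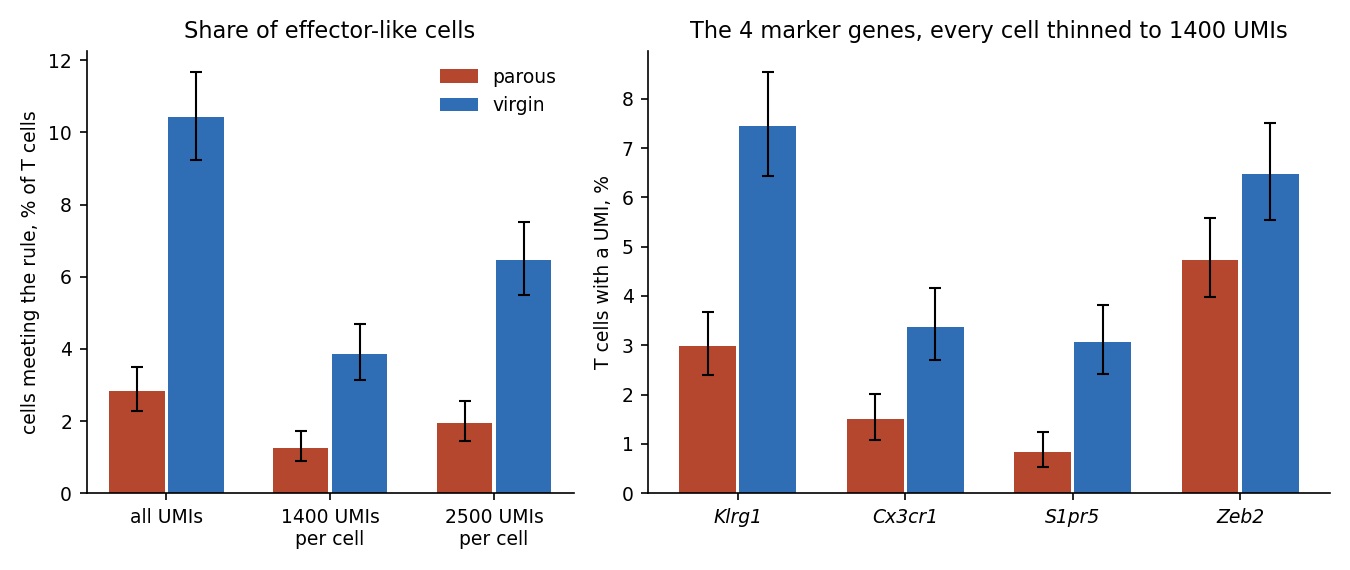
Left, the share of T cells that met the rule, in percent, with all UMIs and with every cell thinned to 1400 or 2500 UMIs, in the parous (red) and virgin (blue) library. Right, the share of T cells with a UMI of each marker gene at 1400 UMIs per cell. Bars are shares of 1 library each and error bars are exact 95% counting intervals. The parous share is 2.84% against 10.4% with all UMIs and 1.25% against 3.86% at 1400 UMIs, and each marker is rarer in the parous library.

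Each of the 4 marker genes was found in fewer parous T cells. With every T cell thinned to 1400 UMIs, Klrg1, an inhibitory receptor for cadherins (ENSMUSG00000030114, chromosome 6, 122270596 to 122282882), had a UMI in 2.99% of parous and 7.44% of virgin T cells. Cx3cr1 (chromosome 9, 119901616 to 120069879) was found in 1.5% and 3.38%, and S1pr5 (chromosome 9, 21242912 to 21248443) in 0.836% and 3.06%. Zeb2, a transcriptional repressor of terminal effector cells (chromosome 2, 44983632 to 45117395), was found in 4.74% and 6.48%, with intervals of 3.99 to 5.58% and 5.54 to 7.52%. Among naive-like cells, which carry Ccr7 with a further naive gene and none of Klrg1, Cx3cr1 and S1pr5, 0.469% of 639 parous and 0.183% of 1091 virgin ones had Zeb2 RNA. The effector-like cells held 54.4% of all parous and 62.3% of all virgin Klrg1 UMIs, but 26.3% of parous against 66.5% of virgin Zeb2 UMIs.

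Within the selected cells Klrg1 and Cx3cr1 stood at levels within counting error of each other in the libraries, S1pr5 was 1.55-fold lower in parous cells (interval 1.13 to 2.25) and Zeb2 1.22-fold higher (interval 1.01 to 1.47). Klrg1 was at 493 CPM in parous and 534 CPM in virgin effector-like cells, Cx3cr1 at 148 CPM in parous and 166 CPM in virgin cells, S1pr5 at 104 CPM in parous and 164 CPM in virgin cells, and Zeb2 at 372 CPM in parous and 305 CPM in virgin cells. The commonest combination in parous cells was Klrg1 with Zeb2 and no other, in 35 parous cells (41.2%) and 64 virgin cells (24.6%), and in virgin cells it was all 4. All 4 markers were found in 4 parous cells (4.71%) and in 90 virgin cells (34.6%), while 61 parous and 106 virgin cells had 2 of them and 20 and 64 had 3. Just outside the rule, 109 parous and 157 virgin T cells without an excluded gene had 1 marker only, and it was Klrg1 or Cx3cr1. Cells with only S1pr5 or only Zeb2 were not counted here. Another 15 parous and 40 virgin cells had the markers but were kept out, 8 and 6 of them with Fcer1g, 3 and 7 with Itgae, and 6 and 33 with Ccr7, some with more than 1 of these genes.

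Gzma and Ccl5, which the rule did not use, were higher in cells with more of the markers. Cells with 1 marker are again those in which it was Klrg1 or Cx3cr1. Gzma, a granule protease, stood in cells with 1, 2, 3 and 4 markers at 399, 2312, 6726 and 15497 CPM in the parous library and at 172, 761, 2286 and 8971 CPM in the virgin library. Ccl5, the chemokine RANTES, stood at 21932, 25981, 40143 and 53201 CPM in parous tissue and 14899, 16142, 21484 and 33519 CPM in virgin tissue. Both genes were thus lowest in cells with Klrg1 or Cx3cr1 as the only marker and highest in cells with all 4 markers, in each library. Klf2, the factor that switches on exit receptors, was at 694, 1259, 2001 and 1404 CPM and at 572, 696, 1456 and 1729 CPM. The parous values at 4 markers come from 4 cells. Cells with 2, 3 and 4 markers had medians of 3663, 3088 and 4192.5 UMIs in the parous library and 7464, 5857.5 and 7302 UMIs in the virgin library, and the part of depth in these levels was not tested.

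**Figure D2:**
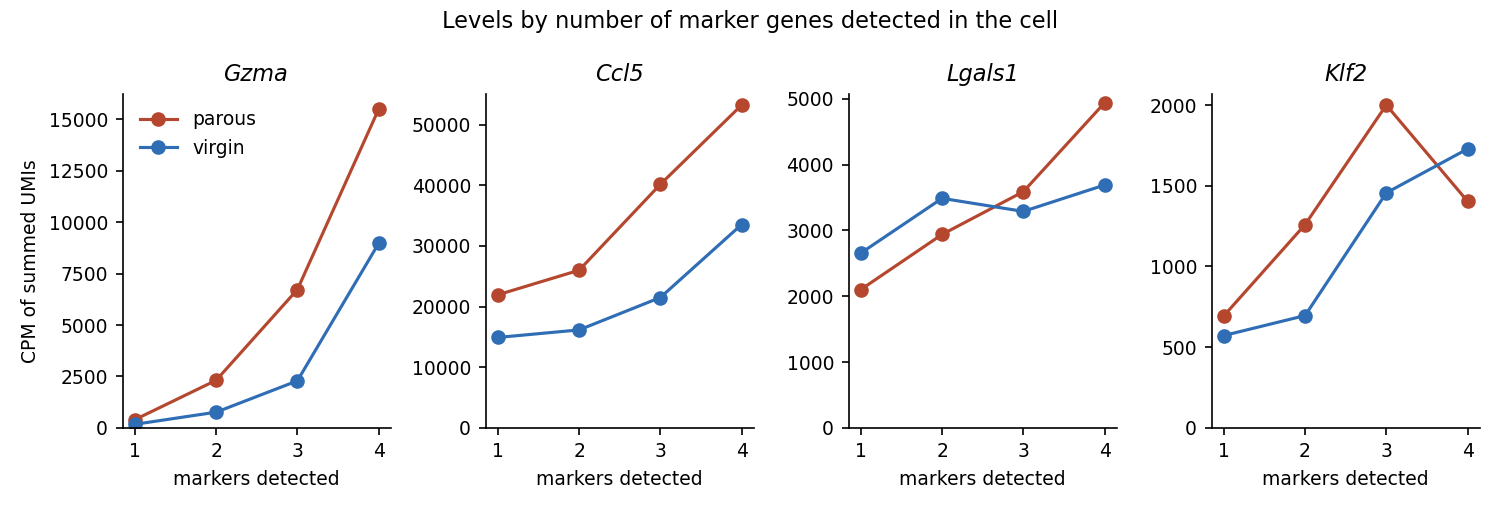
CPM of summed UMIs (y axis, from 0) against the number of the 4 marker genes detected in a cell (x axis), for Gzma, Ccl5, Lgals1 and Klf2 in the parous (red) and virgin (blue) library. Cells with 1 marker, counted only where it was Klrg1 or Cx3cr1, lie outside the rule. Points are sums over cells of 1 library with no replicate. Gzma climbs to 15497 CPM in parous and 8971 CPM in virgin cells with 4 markers, and the parous point at 4 markers rests on 4 cells.

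Set against all other T cells of the same library, effector-like cells carried more RNA of granules, inflammatory chemokines, integrins, galectins and division, and less of naive and central memory genes. Of 2907 genes with a mean of at least 50 CPM, genes of the rule left out, 90 were at least 2-fold higher in the parous library (3.1%) and 145 in the virgin library (4.99%), and 57 in both (1.96%). At least 2-fold lower were 33 (1.14%) and 69 (2.37%), and 21 in both (0.722%). The median gene was itself higher by 0.19 (log2) in the parous and 0.25 in the virgin effector-like cells, and with median-of-ratios scaling 30 genes were higher and 25 lower in both. These cells were picked from the same libraries by genes that go along with others, so the counts are descriptions. The other T cells also differ between the libraries, and these ratios move with them.

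Among the granule genes, 3 of 15 measured were at least 2-fold higher in effector-like cells in both libraries, 5 in parous tissue and 8 in virgin tissue, and none of the 15 was 2-fold lower. Gzma (chromosome 13, 113093825 to 113100981) had 3858 CPM in effector-like cells and 1534 CPM in other T cells of the parous library, and 3762 and 119.9 CPM in the virgin library. The level over all effector-like cells was therefore nearly equal between libraries, and the level in the other T cells was not. It depended on which cells were summed: at each number of markers Gzma was higher in parous cells, and without Trbv31 cells it was 4004 CPM in parous and 2576 CPM in virgin effector-like cells (1.55-fold). Parous effector-like cells held 6.60% of the parous Gzma UMIs and virgin ones 81.9% of the virgin Gzma UMIs. In the parous library Gzma was high in T cells with Fcer1g and Tyrobp, at 10872 CPM. Gzmb, another granzyme, had 808 CPM in parous effector-like and 569 CPM in other parous T cells, and 1156 CPM in virgin effector-like and 159.6 CPM in other virgin T cells. Serpinb9, the inhibitor that shields a cell from its own granzyme B, had 279 CPM in parous effector-like and 129 CPM in other parous T cells, and 116 CPM in virgin effector-like and 43.8 CPM in other virgin T cells. Perforin, Prf1, was 1.79-fold and 2.06-fold higher.

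Gzma was not in every effector-like cell. A Gzma UMI was present in 43 of 85 parous and 164 of 260 virgin effector-like cells, and 1 parous cell alone had 203 of 1409 UMIs. With cells thinned to 2200 UMIs it was present in 46.8% of parous effector-like cells (36 of 77, interval 35.3 to 58.5%) and in 57.6% of virgin ones (148 of 257, interval 51.3 to 63.7%). At the same depth it was found in 16.0% of other parous and 2.91% of other virgin T cells, and in 2.58% and 0.368% of naive-like cells. These naive-like cells had medians of 5128 and 7750 UMIs before thinning.

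The factor T-bet, Tbx21, which drives the effector program, was 1.76-fold higher in effector-like than in other T cells of the parous library (230.0 and 131 CPM) and 2.66-fold higher in the virgin library (287 and 108 CPM). Id2, which restrains the memory program, was at 419 CPM in parous effector-like and 209 CPM in other parous T cells, and 613 CPM in virgin effector-like and 284 CPM in other virgin T cells. Of 6 measured terminal effector factors other than Zeb2, Id2 alone reached 2-fold in both libraries, and with median-of-ratios scaling its log2 ratios were 0.80 in parous and 0.87 in virgin tissue, below 2-fold. Runx3 was 1.32-fold higher in each library, and Stat4 1.10-fold higher in parous and 1.08-fold in virgin tissue. Of 9 memory factors, 4 were at least 2-fold lower in both: Tcf7, Lef1, Satb1 and Zeb1. Tcf7, which sustains naive and memory cells, had 57.5 CPM in parous effector-like and 179 CPM in other parous T cells, and 91.5 CPM in virgin effector-like and 319 CPM in other virgin T cells. Eomes, a relative of T-bet kept in memory cells, stood at 145 CPM in parous effector-like and 67.1 CPM in other parous T cells, and 70.0 CPM in virgin effector-like and 62.6 CPM in other virgin T cells.

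Naive and central memory genes were low in effector-like cells. Of the 7 measured naive or central memory genes outside the rule, 6 were at least 2-fold lower in both libraries. Il7r, the receptor for the survival cytokine IL-7, had 57.5 CPM in parous effector-like and 230.1 CPM in other parous T cells, and 41.0 CPM in virgin effector-like and 349 CPM in other virgin T cells. Of 14 measured cytokine receptor and survival genes 2 were at least 2-fold higher and 2 lower in both libraries. The survival gene Bcl2 was lower and had 98.6 CPM in parous effector-like and 339 CPM in other parous T cells, and 69.2 CPM in virgin effector-like and 232 CPM in other virgin T cells. Its relatives Bcl2a1b and Bcl2a1d, closely alike copies whose counts are uncertain, were 1.24-fold and 1.97-fold higher in parous and 2.51-fold and 3.45-fold higher in virgin tissue. Dapl1, Satb1, Rgs10 and Lef1 were lower, by 1.79 to 2.85 on the log2 scale in parous tissue and 2.55 to 4.03 in virgin tissue. The rule excludes Ccr7, which goes along with these genes.

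Of 13 measured genes of egress and adhesion, Itgb1 and Itgb2 were at least 2-fold higher in both libraries. With median-of-ratios scaling the parous ratio of Itgb1 was 0.86 (log2), below 2-fold. Itgb1, the beta 1 integrin chain, had 575 CPM in parous effector-like and 276 CPM in other parous T cells, and 779.9 CPM in virgin effector-like and 248 CPM in other virgin T cells. Itga4, its alpha 4 partner in the integrin VLA-4, was 2.15-fold and 1.81-fold higher. S1pr1, the receptor by which T cells leave tissue, was not among them. It stood at 104 CPM in parous effector-like and 117 CPM in other parous T cells, and 86.0 CPM in virgin effector-like and 169.7 CPM in other virgin T cells, below the naive-like cells (223 and 251 CPM). Klf2 was 1.75-fold higher than in other parous T cells and at 1211 against 1777 CPM in the virgin library. The chemokine receptor gene Ccr2 was 2.59-fold and 1.95-fold higher.

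Galectin, S100 and annexin genes, which come up in activated and migrating T cells, were higher too. Of 14 measured, 5 were at least 2-fold higher in both libraries, 6 in parous tissue and 9 in virgin tissue, and none was 2-fold lower. Lgals1, the secreted lectin galectin-1, had 3171 CPM in parous effector-like and 926 CPM in other parous T cells, and 3505 CPM in virgin effector-like and 1066 CPM in other virgin T cells. Thinned to 2200 UMIs it was detected in 94.8% of parous and 98.1% of virgin effector-like cells, and in 34.2% and 26.5% of naive-like cells. Lgals3 had 288 CPM in parous effector-like and 112 CPM in other parous T cells, and 487 CPM in virgin effector-like and 79.2 CPM in other virgin T cells. Among cytokine receptors, Il18rap, a chain of the receptor for the inflammatory cytokine IL-18, had 107 CPM in parous effector-like and 30.3 CPM in other parous T cells, and 131 CPM in virgin effector-like and 34.6 CPM in other virgin T cells. Of 7 measured cytokines and chemokines, 2 were at least 2-fold higher and 2 lower in parous tissue, and 4 higher and none lower in virgin tissue. Ccl5 and Ccl4 were 2.29-fold and 2.19-fold higher in parous tissue and 3.42-fold and 3.97-fold higher in virgin tissue. With median-of-ratios scaling Ccl5 was just under 2-fold in parous tissue (log2 0.998). Xcl1, a chemokine that attracts dendritic cells, was lower in parous tissue, at 266 CPM in effector-like and 701 CPM in other T cells, and higher in virgin tissue, at 348 and 179.7 CPM. Ltb, a lymphotoxin chain, was 2.33-fold and 1.65-fold lower. Ifng, the macrophage-activating cytokine, was 1.82-fold and 2.70-fold higher.

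**Figure D3:**
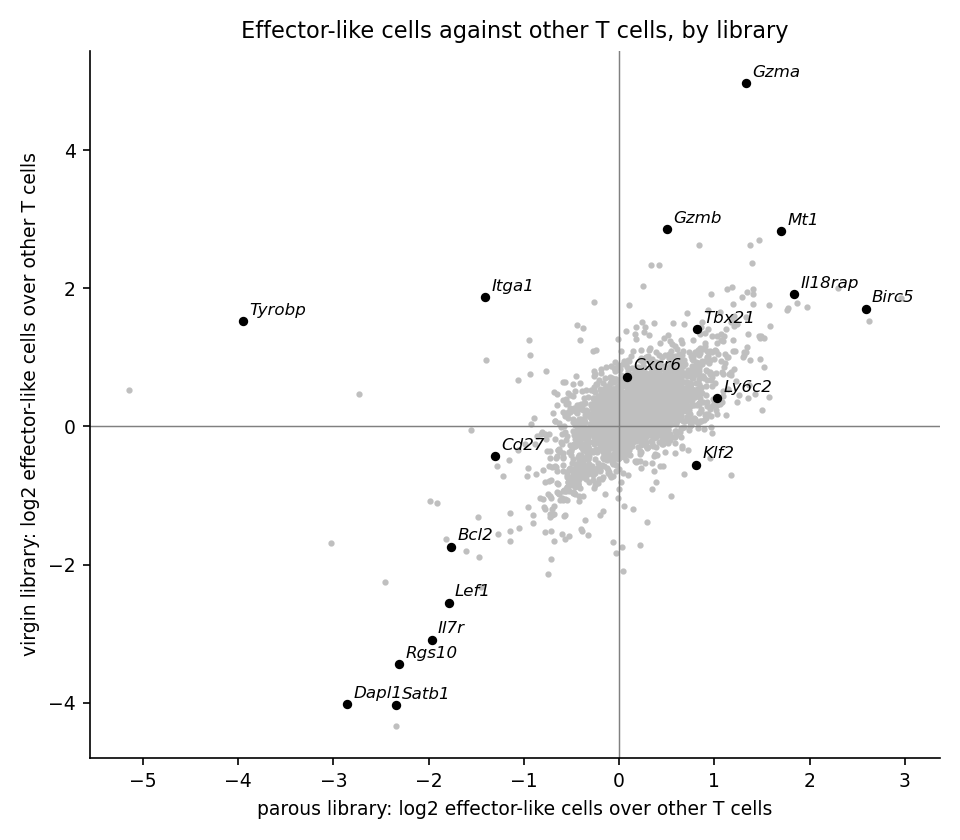
Each point is 1 gene of the 2907 counted, genes of the rule left out. The x axis is the log2 ratio of effector-like cells over other T cells in the parous library and the y axis the same ratio in the virgin library, both from summed UMIs of 1 library with no replicate. Gzma lies at 1.33 and 4.97 and Il7r at -1.97 and -3.08, while Tyrobp and Itga1 lie left of 0 in parous tissue and above 0 in virgin tissue.

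Cells in division were more frequent among effector-like cells. Of 14 measured cell cycle genes, 10 were at least 2-fold higher in both libraries. Mki67, which marks dividing cells, had 84.9 CPM in parous effector-like and 17.6 CPM in other parous T cells, and 166 CPM in virgin effector-like and 41.2 CPM in other virgin T cells. Cells with RNA of at least 3 of 10 S phase and mitosis genes made up 9.41% of parous effector-like cells (8 of 85, interval 4.15 to 17.7%) and 18.5% of virgin ones (48 of 260, interval 13.9 to 23.7%). Among other T cells they were 1.93% and 4.56%. At 2200 UMIs per cell the shares were 5.19% (4 of 77) and 10.5% (27 of 257) of effector-like cells and 1.66% and 2.68% of other T cells. In the parous library the interval for effector-like cells (1.43 to 12.8%) then overlapped that for other T cells (1.21 to 2.23%), and in the virgin library it lay above (7.04 to 14.9% for effector-like cells). The intervals of parous and virgin effector-like cells also overlapped.

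The genes whose RNA went along best with the 4 markers over all 5488 T cells were Gzma, Lgals1, Ccl5, Gzmb and Actb, with Pearson correlations of 0.39, 0.38, 0.37, 0.35 and 0.34 between the log of depth-scaled UMIs per cell and the summed rank of the markers, centred within library. These points share 2 libraries, and cells with more UMIs show more genes. For Gzma the correlation was 0.13 in parous tissue and 0.74 in virgin tissue, for Lgals1 0.27 and 0.48.

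T cells of other kinds carry some of the same genes. Effector-like cells had 1366 CPM of Cd8b1 in parous and 1415 CPM in virgin tissue, and the T cells with Fcer1g and Tyrobp RNA, 287 parous and 22 virgin, had 175 and 389 CPM. The Ly49 receptor gene Klra7 stood at 5.48 and 0.398 CPM in parous and virgin effector-like cells, against 725 and 285 CPM in those cells. Counts of Ly49 genes are uncertain, since these paralogs are closely alike. The NK or innate-like list summed to 233 CPM in parous and 387 CPM in virgin effector-like cells, and to 595 and 141 CPM in other T cells; Klra4 and Zbtb16 were at 0 in both effector-like sets. Cells with Itga1 and Cxcr6 but no Itgae, 185 parous and 155 virgin, had 1864 and 316 CPM of Gzma and 1119 and 2284 CPM of Lgals1. The rule's exclusion of Fcer1g bears on the contrast with the Fcer1g cells.

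Part of the virgin cells went against the name of circulating cells. Residency genes outside the rule were present in many of them: of Itga1, the transcription factor gene Zfp683 (Hobit), the ATP receptor gene P2rx7 and the chemokine receptor gene Ccr8, at least 2 were found in 0 of 85 parous effector-like cells, which allows a share of up to 3.53%, and in 96 of 260 virgin ones (36.9%). None was found in 72 parous and 116 virgin cells. Thinned to 2200 UMIs, at least 1 was found in 11.7% of parous (9 of 77, interval 5.49 to 21%) and 34.2% of virgin effector-like cells (88 of 257, interval 28.5 to 40.4%), against 19.3% and 9.83% of other T cells. At that depth at least 2 were found in 0 of 77 parous and 31 of 257 virgin effector-like cells. These 4 genes were put together after earlier values had been seen. In level, Itga1 was at 27.4 CPM in parous and 85.6 CPM in virgin effector-like cells, and Zfp683 at 11 CPM in parous and 102 CPM in virgin cells. Both were thus lower in parous effector-like cells, although Itga1 was higher in other parous (76.2 CPM) than in other virgin T cells (23.3 CPM).

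The virgin cells with at least 2 residency genes carried effector markers, as the rule required of every cell. They had 646 CPM of Klrg1, and virgin cells with none of the 4 genes had 325 CPM. In the same order Cx3cr1 stood at 121 against 178 CPM, S1pr5 at 153 against 160 CPM and Zeb2 at 228 against 382 CPM. Gzma, which the rule did not use, was at 3883 CPM in the cells with at least 2 residency genes against 2828 CPM. It was highest, at 5236 CPM, in the 48 virgin cells with 1 of the 4 genes. Again in cells with at least 2 against cells with none, Klf2 stood at 873 against 1636 CPM and S1pr1 at 60.2 against 134 CPM. The chemokine receptor gene Cxcr6 stood at 300.3 against 141 CPM. Klf2 and S1pr1 were thus lower and Cxcr6 higher in the cells with residency genes. Of 2 further genes of the tissue-resident memory list, Rgs1 stood at 651 against 278 CPM, but Cd69 was not higher, at 398 against 422 CPM. The cells with at least 2 residency genes also had more UMIs, with medians of 10079 against 5542, which raises the chance of finding a gene.

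The receptor genes set these virgin cells further apart. A T cell receptor beta chain carries 1 Trbv segment, assigned here where it had 2 UMIs or more and no less than 2/3 of the Trbv UMIs of the cell. Trbv31 was assigned in 6 of 61 parous effector-like cells with an assigned segment (9.84%, interval 3.70 to 20.2%) and in 90 of 225 virgin ones (40.0%, interval 33.5 to 46.7%). In other T cells it was used by 5.35% and 4.62%. Effector-like cells were 4.88% of all parous Trbv31 T cells (6 of 123) and 50.3% of all virgin ones (90 of 179). The commonest parous segment was Trbv13-2, in 9 of 61 cells (14.8%), and after Trbv31 the virgin cells used Trbv16 (24 cells) and Trbv3 (23 cells).

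**Figure D4:**
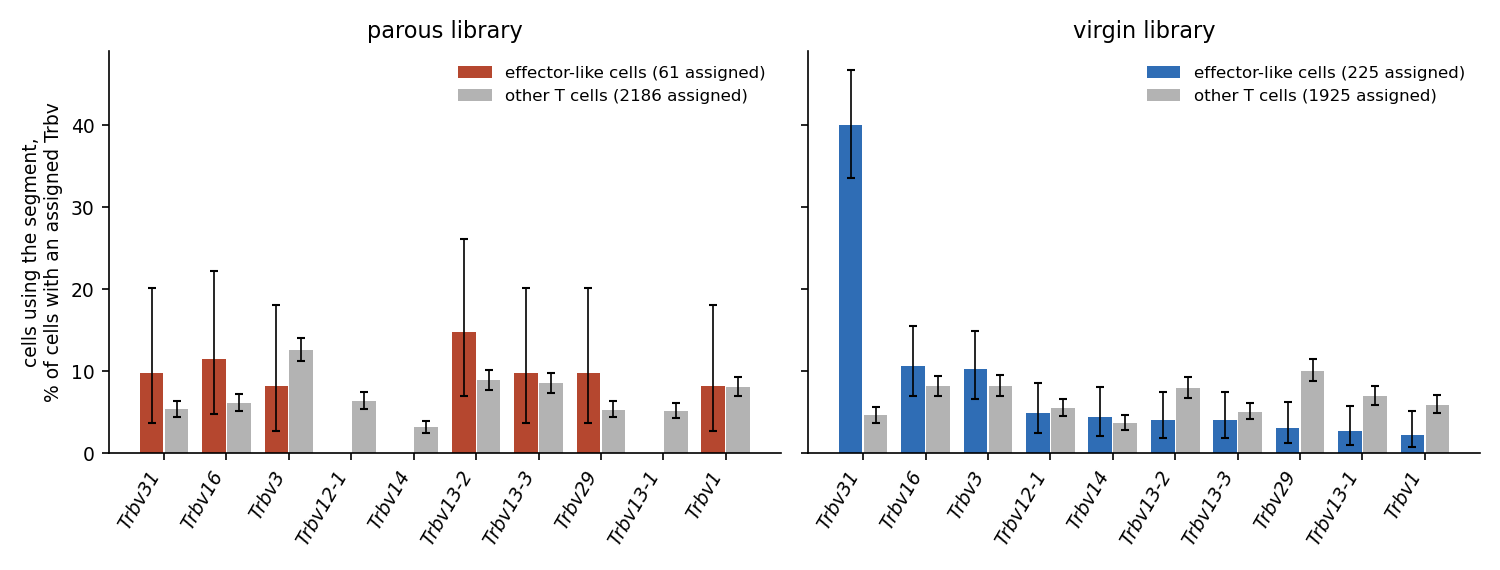
Share of cells that use a Trbv segment, in percent of cells with an assigned segment, for effector-like cells (red, parous; blue, virgin) beside other T cells of the same library (grey). Error bars are exact 95% counting intervals, and a segment with no cell has no bar. Trbv31 stands at 9.84% in parous and 40.0% in virgin effector-like cells, against 5.35% and 4.62% in other T cells.

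The virgin Trbv31 cells also shared their alpha segments. Of the 90, 85 (94.4%) had a UMI of Trav3-1 or Trav10d and 51 (56.7%, interval 45.8 to 67.1%) had both. Both were found in 5 of 135 virgin effector-like cells with another Trbv (3.70%), in 19 of 89 other virgin T cells with Trbv31 (21.3%) and in 5 of 1836 other virgin T cells with another Trbv (0.272%). None of the 123 parous Trbv31 T cells had both, which allows a share of up to 2.44%. Of the 70 virgin T cells with Trbv31 and both alpha segments, 51 were effector-like, 16 had 1 marker, 1 had none and 2 were kept out by an excluded gene. Of the 51, 19 were in division by the 10 genes. Where a beta and an alpha segment were both assigned, the commonest pairs in virgin effector-like cells were Trbv31 with Trav3-1 (21 of 129) and with Trav10d (16), then Trbv12-1 with Trav3-3 (9). In parous effector-like cells they were Trbv13-2 with Trav3-3 (5 of 20) and Trbv31 with Trav5-4 (3 of 20). Shared segments are no proof of a shared clone, since the junctions were not used here.

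Trav3-1 had a UMI in 0 of 85 parous and 79 of 260 virgin effector-like cells, and Trav3-3 in 11 and 37. Trbv13-2 was used by 14.8% of parous (9 of 61) and 4.00% of virgin effector-like cells (9 of 225). The intervals overlapped only narrowly (6.98 to 26.2% in parous and 1.85 to 7.46% in virgin cells). The ends of segments from the pairs Trbv31 with Trav3-1, Trbv31 with Trav10d and Trbv13-2 with Trav3-3 are shown. They are the last 90 coding bases of the germline segment from GENCODE mouse release 21 on GRCm38, 5′ to 3′ on the coding strand. Capitals mark the codon of the conserved cysteine at which the junction begins.
Trbv31, chr6:41557691-41557780, minus strand: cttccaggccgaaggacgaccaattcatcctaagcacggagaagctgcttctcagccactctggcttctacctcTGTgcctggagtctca
Trav3-1, chr14:52581124-52581213, plus strand: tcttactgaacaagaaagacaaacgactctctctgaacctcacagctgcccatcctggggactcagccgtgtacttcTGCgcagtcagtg
Trav10d, chr14:52811407-52811496, plus strand: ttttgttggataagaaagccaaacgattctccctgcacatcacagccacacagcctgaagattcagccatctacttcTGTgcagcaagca
Trbv13-2, chr6:41121743-41121832, plus strand: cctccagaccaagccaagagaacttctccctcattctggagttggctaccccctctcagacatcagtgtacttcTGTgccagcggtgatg
Trav3-3, chr14:53666417-53666506, plus strand: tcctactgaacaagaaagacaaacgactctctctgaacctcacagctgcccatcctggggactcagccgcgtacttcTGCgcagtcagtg
Trav10d is identical to the duplicates Trav10 and Trav10n at 340 of 343 coding bases, so which copy was read is uncertain. In virgin effector-like cells Trav10d was found in 84, Trav10 in 9 and Trav10n in 1. Trav3-1 and Trav3-3 are identical at 314 of 343 bases (91.5%).

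Trbv31 cells and residency genes went together in the virgin library. At least 2 of the 4 residency genes were found in 63 of 90 virgin effector-like cells with Trbv31 (70.0%, interval 59.4 to 79.2%) and in 22 of 135 with another Trbv (16.3%, interval 10.5 to 23.6%). At 2200 UMIs per cell at least 1 was found in 64.4% (58 of 90) and 17.2% (23 of 134), and in 5.88% of parous effector-like cells with another Trbv (3 of 51). At equal depth the share in virgin Trbv31 cells thus lay above that in both other sets. The intervals of those sets overlapped (11.2 to 24.6% and 1.23 to 16.2%), which does not show that their shares were equal. Among cells with another Trbv, Zfp683 had 36.5 CPM in virgin and 4.15 CPM in parous cells. Itga1 had 58.7 and 20.8 CPM, and P2rx7 25.8 and 12.5 CPM. The parous values rest on 1, 5 and 3 UMIs. The residency genes were thus not higher in virgin Trbv31 cells alone.

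Over 3181 genes, 74 lay 2-fold or more higher (2.33%) and 59 lay 2-fold or more lower (1.85%) in virgin effector-like cells with Trbv31 than in those with another Trbv. Both sets come from the same library, and their median UMIs were 8127 and 5985. Of 11 tissue retention genes 6 were higher and none lower. Zfp683 had 187 CPM in Trbv31 cells and 36.5 CPM in cells with another Trbv, with a UMI in 65 of 90 and 19 of 135 cells. P2rx7 had 123 CPM in Trbv31 cells and 25.8 CPM with another Trbv. Cells in division by the 10 genes were 31.1% of the Trbv31 cells (28 of 90) and 11.9% of those with another Trbv (16 of 135). Itga1 had 123 CPM in Trbv31 cells and 58.7 CPM with another Trbv. Klra3, a Ly49 receptor gene, had 215 CPM in Trbv31 cells and 63.2 CPM with another Trbv, and Klrb1f, a C-type lectin receptor gene, 158 CPM in Trbv31 cells and 28.5 CPM with another Trbv. Cd74, the invariant chain of MHC class II, had 209 CPM in Trbv31 cells and 7.12 CPM with another Trbv, with a UMI in 26 of the 90 Trbv31 cells. Ccl1 and Xcl1 were much higher too, but 1 cell held 317 of the 322 Ccl1 UMIs and 1 cell 255 of the 731 Xcl1 UMIs.

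Lower in Trbv31 cells were all 4 measured genes of the exhausted or Gzmk list, 3 of 7 memory factors with none higher, and 4 of 6 inhibitory receptors with 1 higher. Tigit, Tox and Ctla4 are counted in both the exhausted or Gzmk list and the inhibitory receptor list. Gzmk, a granzyme of memory-like cells, had 10.3 CPM in Trbv31 cells and 445 CPM in virgin cells with another Trbv, with a UMI in 8 of 90 and 85 of 135 cells. Parous effector-like cells with another Trbv had 473 CPM. Cd5, an inhibitor of receptor signals, had 5.15 CPM in Trbv31 cells and 186 CPM with another Trbv, and the parous cells 249 CPM. Eomes had 7.20 CPM in Trbv31 cells and 116 CPM with another Trbv, and the parous cells 129 CPM. Ly6c2, a surface antigen of many memory T cells, had 719 CPM in Trbv31 cells and 2618 CPM with another Trbv, and the parous cells 2536 CPM. For these 4 genes the virgin cells with another Trbv lay close to the parous cells, and the Trbv31 cells lay well below both, 3.64-fold lower than the virgin cells with another Trbv for Ly6c2 and 41.2-fold lower for Gzmk. Klrc1, the NKG2A chain of an inhibitory receptor, had 22.6 CPM in Trbv31 cells and 314 CPM with another Trbv, beside 174 CPM in parous cells. Of 11 circulating effector genes, the markers of the rule among them, 2 were at least 2-fold higher in Trbv31 cells and none lower. These were Gzma and Klrg1, and Klrg1 is a gene that chose the cells. Klrg1 had 790.3 CPM in Trbv31 cells and 389 CPM with another Trbv. Gzma had 5642 CPM in Trbv31 cells and 2806 CPM with another Trbv, Gzmb 1563 CPM in Trbv31 cells and 919.8 CPM with another Trbv, and Tbx21 336 CPM in Trbv31 cells and 280.2 CPM with another Trbv, with 4569.9, 826 and 203 CPM in parous cells.

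**Figure D5:**
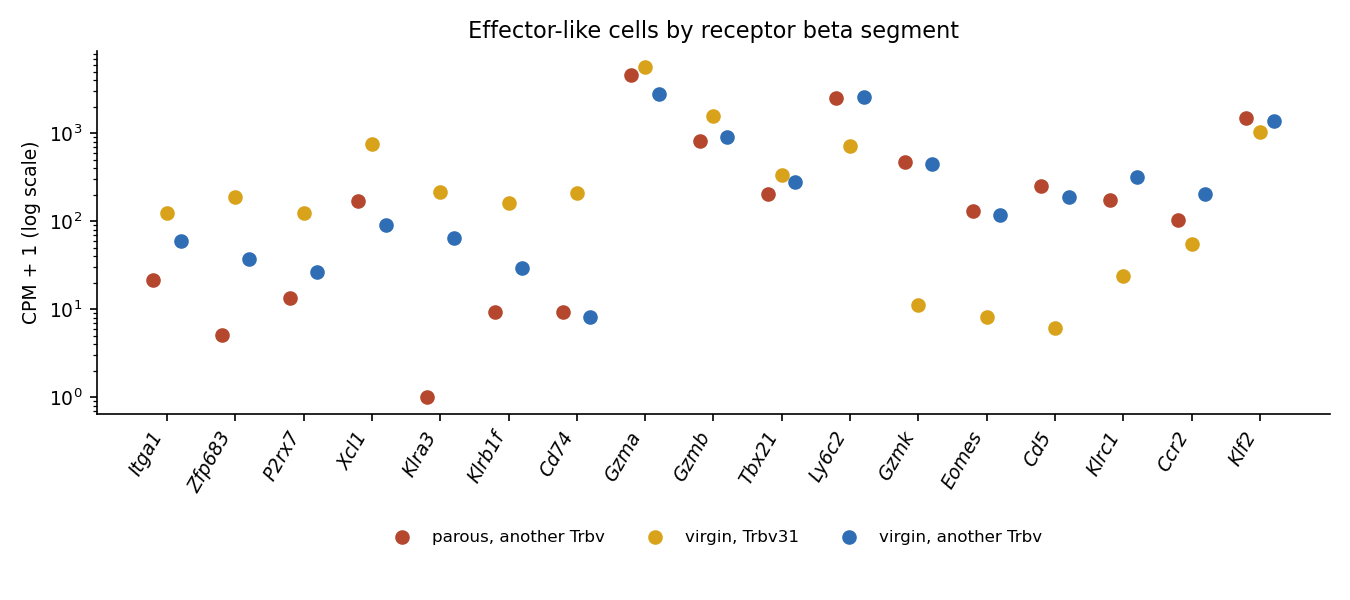
CPM plus 1 on a log axis for 17 genes (x axis), chosen after their values were seen, in parous effector-like cells with a Trbv other than Trbv31 (red), virgin ones with Trbv31 (yellow) and virgin ones with another Trbv (blue). Each point is a sum over cells of 1 library with no replicate. For Gzmk, Eomes, Cd5 and Ly6c2 red and blue lie together and yellow below, and for Zfp683, P2rx7 and Klrb1f yellow lies highest.

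Parous and virgin effector-like cells were then set against each other. Of 3105 genes, 40 lay 2-fold or more higher in parous cells (1.29%) and 89 lay 2-fold or more lower (2.87%), 51 and 63 with median-of-ratios scaling. The median gene lay at -0.05 (log2 parous over virgin). Gzma was at 3858 CPM in parous and 3762 CPM in virgin cells (ratio 1.03, interval 0.969 to 1.08) and Tbx21 at 230.0 CPM in parous and 287 CPM in virgin cells (ratio 0.806, interval 0.632 to 1.01). None of the 11 measured genes of the circulating effector list, of 12 for egress and adhesion, of 5 chemokine receptors or of 13 for the type I interferon response reached 2-fold, counts near the background share for lists this short. The 11 include Klrg1, Cx3cr1, S1pr5 and Zeb2, which chose the cells in both libraries and so bear on that count. Of 8 NK receptors 3 were lower, of 7 inhibitory receptors 2 were higher and 2 lower, of 13 tissue retention genes 2 were higher and 2 lower, and of 8 tissue-resident memory genes 2 were lower. Without cells that had Trbv31 assigned, none was lower in these lists among the genes still at a mean of at least 50 CPM. Itga1, Zfp683 and Klra3 then fell below that mean and were not counted. In cells with another Trbv assigned they still lay lower in parous tissue. Itga1 had 20.8 CPM in parous and 58.7 CPM in virgin cells, Zfp683 4.15 and 36.5 CPM, and Klra3 0 and 63.2 CPM. Of the genes counted, 0 of 7 NK receptors and 1 of 7 inhibitory receptors were higher without Trbv31 cells. So were 3 of 11 tissue retention genes and 1 of 6 tissue-resident memory genes. With 85 parous cells, counting error alone lets some genes pass 2-fold.

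Higher in parous effector-like cells were several regulators and granule genes. Fosl2, an AP-1 transcription factor gene, had 169.8 CPM in parous and 47.0 CPM in virgin cells, 3.63-fold higher (interval 2.61 to 4.96). It was also higher in other parous T cells, 171 against 56.4 CPM, and among effector-like cells with at least 3 markers its ratio was slightly the other way (log2 -0.16). Other parous T cells were also higher for Arid5a, an RNA-binding regulator of cytokine messages (235 CPM in parous and 89.5 CPM in virgin cells here, 209 and 103 CPM in other T cells). Serpinb9 had 279 CPM in parous and 116 CPM in virgin cells (2.41-fold, interval 1.90 to 3.02), and 129 and 43.8 CPM in other T cells. Of 15 measured granule genes 3 were higher and none lower: Serpinb9, Gzmm (2.21-fold) and Gzmk (2.03-fold). Pdcd1, the gene of the checkpoint receptor PD-1, had 129 CPM in parous and 39.0 CPM in virgin cells, from 16 of 85 and 41 of 260 cells, with 18 of its 47 parous UMIs in 1 cell.

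Some of these ratios moved with the Trbv31 cells. Without cells that had Trbv31 assigned, Gzmk stood at 499 CPM in parous and 379.6 CPM in virgin effector-like cells (log2 0.40, against 1.02 with them). Eomes had a log2 ratio of 0.31 (against 1.06 with them), Cd5 of 0.32 (against 1.05) and Emb, a surface protein gene, of 0.63 (against 1.12). Gzma had 0.64 (against 0.04) and Xcl1 1.49 (against -0.38, the other way). Fosl2 had 1.64, Arid5a 1.23 and Serpinb9 1.10. In all, 33 genes were then at least 2-fold higher (1.05%) and 66 lower (2.11%) of 3132. The parous share of effector-like cells was 2.75% and the virgin one 7.33% without Trbv31 cells, so the gap in share was smaller but kept its direction.

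Lower in parous effector-like cells were histone and other genes. Hist1h1b, a linker histone made in S phase, had 19.2 CPM in parous and 369.7 CPM in virgin cells, 18.0-fold lower (interval 9.32 to 48.1). Its virgin UMIs came from 41 cells, 1 of which held 159 of 929, and its parous UMIs from 5 cells. Without the cells in division by the 10 genes its log2 ratio was 1.36, the other way, and that of Hist1h2ae was 0.53. Of 21 measured cell cycle genes 6 were at least 2-fold lower and none higher. The share of cells in division, 9.41% in parous and 18.5% in virgin cells, had overlapping intervals. Outside the histones, Ass1, an enzyme of arginine synthesis, had 73.9 CPM in parous and 216 CPM in virgin cells. Without Trbv31 cells Ass1 had 76.3 CPM in parous and 144 CPM in virgin cells (1.86-fold lower, below the 2-fold cut). Cd226, the activating receptor DNAM-1, had 153 CPM in parous and 387 CPM in virgin cells (2.50-fold lower, interval 1.93 to 3.36), and without Trbv31 cells 135 and 322 CPM. Il31ra, a cytokine receptor gene, had 194 CPM in parous and 481 CPM in virgin cells, and it was lower in other parous than in other virgin T cells as well (235 against 520.2 CPM). Klra3 had 0 UMIs in parous effector-like cells and 322 in virgin ones, at least 15.6-fold lower in parous cells with 3 UMIs over the parous sum taken as the limit of a count of 0.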

How the data were processed

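RNA of sorted mammary CD8 T cells was measured in 1 parous and 1 virgin library, both made from pooled mice. The deposited matrices hold raw UMI counts per gene and cell, with Cell Ranger 7.0.0 named per the file headers. The submitters' processing notes also name the mm10 build, R 4.4.2 and Seurat, with no role. Cell-calling settings are not given in the sources used here. Positions and segment sequences were read from GENCODE mouse release 21 on GRCm38.

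The cell filter, the marker rule, the members and the gene lists (13 of cell type markers and 16 others, 29 in all) were chosen with earlier results of these data known. Counts were summed over the cells of a set and divided by all UMIs of the set (CPM). Log2 ratios used a pseudocount of 0.5 UMI, and a gene was called apart at 2-fold, among genes with a mean of at least 50 CPM. Ratio intervals are exact conditional binomial intervals and share intervals are Clopper-Pearson intervals, both at 95% and both for counting error only. There is 1 library per group, so no test was made. The limit of a count of 0 is 3 counts of the total.

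To compare shares at equal depth, UMIs were drawn at random without replacement to 1400 or 2500 per T cell, and to 2200 for genes within effector-like cells. The last left out 8 of 85 parous and 3 of 260 virgin effector-like cells. No doublet caller was run, and an alternative left out cells above the 98th percentile of UMIs, among them 2 parous and 18 virgin effector-like cells. A receptor segment was assigned with at least 2 UMIs and 2/3 of the segment UMIs of its kind. Joining segments were assigned in too few cells, so beta and alpha variable segments were paired instead. The cell cycle definition first chosen, at least 3 genes of the list, took 55.3% of parous and 76.5% of virgin effector-like cells, and a definition by 10 S phase and mitosis genes was added after seeing this.

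Genes were named by rule, a few of which are not reported here: the 10 highest and 10 lowest parous over virgin ratios with a mean of at least 100 CPM and 30 UMIs, the 12 highest and 8 lowest for effector-like over other T cells in both libraries, up to 6 of each list, a chosen set of effector and residency genes, and the 5 genes most correlated with the markers. The receptor pairs, the 4 residency genes and the genes of the Trbv31 comparison were chosen after values were seen. Other alternatives changed the scaling, the filter on low values, the number of markers, the exclusion and the cell filter.

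On simulated counts for the parous over virgin ratio within effector-like cells (3107 genes, 200 of them changed), the median log2 ratio was 0.99 for 2-fold and 1.99 for 4-fold changes, and 96.7% of intervals held the true value. Of unchanged genes 0.241% were called, of 2-fold changes 44% and of 4-fold changes 100%. The draws were Poisson, so this checks the computation only. Tools were Python 3.11.15, numpy 2.4.6, scipy 1.17.1, pandas 2.3.3 and matplotlib 3.10.9.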

Additional observations from a re-analysis of the deposited data

Results flagged for a closer look

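Tyrobp and Itga1 lay in opposite directions in the 2 libraries when effector-like cells were set against other T cells. Tyrobp, a signalling adaptor of innate receptors, had a log2 ratio of -3.95 in the parous library (11 against 190.3 CPM) and of 1.53 in the virgin library (26.3 against 9.14 CPM). Cells with Fcer1g, in which Tyrobp stood at 1759 CPM in parous and 522 CPM in virgin tissue when both genes were present, were excluded from the effector-like cells by the rule and stayed among the other T cells. Itga1 had a log2 ratio of -1.41 in the parous library (27.4 against 76.2 CPM) and of 1.88 in the virgin library (85.6 against 23.3 CPM). The differences between the libraries were not tested, since each group is 1 library.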

How the results depend on the processing

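No paired analysis was possible because each group is 1 library and the labels give no replicate numbers. The share of effector-like cells was 1.25% in parous and 3.86% in virgin tissue at 1400 UMIs per cell, 1.95% and 6.45% at 2500 UMIs, and 0.802% and 6.17% (log2 -2.94) with at least 3 markers. The virgin share was 12% without the exclusion and 7.33% without Trbv31 cells (log2 -1.41, an alternative chosen after seeing the data). Genes at least 2-fold higher and lower in parous than in virgin effector-like cells numbered 2731 and 1447 with no filter on low values, 14 and 27 at a mean of at least 100 CPM, 185 and 170 with at least 3 markers, 158 and 170 without cells with 3 cell cycle list genes, and 139 and 147 with cells thinned to 1400 UMIs. With cells chosen at 1400 UMIs 125 were higher, and without cells with 2 residency genes, chosen after seeing the data, 50 were lower. Higher and lower than other T cells in both libraries were 4779 and 258 with no filter, 29 and 9 at 100 CPM, and 89 and 36 without cells with 3 cell cycle list genes. With median-of-ratios scaling 30 were higher, and lower were 42 with at least 3 markers and 33 with cells chosen at 1400 UMIs. The virgin Trbv31 share was 56.2% where all segment UMIs came from 1 gene, 32.7% without cells with 3 cell cycle list genes and 54.8% with cells chosen at 1400 UMIs. With at least 3 markers the direction turned for Fosl2 (-0.16) and Eomes (-0.012), parous over virgin, and for Zfp683 (0.53), effector-like over other T cells in the parous library. Without cells with 3 cell cycle list genes it turned for Hist1h1b (1.35) and Hist1h1c (0.75). Without cells with 3 of the 10 S phase and mitosis genes it turned for Hist1h1b (1.36) and Hist1h2ae (0.53), an alternative chosen after seeing the data. Without cells with 2 residency genes Itga1 was at 0.060, which that choice itself sets, since Itga1 is 1 of those genes and all 96 cells left out are virgin. The other causes were not tested. Of 1138 values of named genes over 14 settings, 795 stayed within the counting interval of the value as reported, 335 moved beyond it, and 8 that had been at least 2-fold apart changed sign. Values of any size changed sign in 48 cases, those 8 included. The parous effector-like cells hold 365213 UMIs in 85 cells, so counting limits what low genes there can show.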
